A study of Mus musculus with 15 samples.

Results

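The RNA of 9 hedgehog pathway genes was followed through the development of the mouse stomach: the ligands Shh, Ihh and Dhh, the receptors Ptch1 and Smo, the membrane inhibitor Hhip, and the transcription factors Gli1, Gli2 and Gli3. They were taken by gene symbol from 44788 symbols, the entries of a symbol being summed. Stomachs of C57BL/6 mice were sequenced at 15 time points: every embryonic day from E12.5 to E18.5, days 1, 3 and 5 after birth (D1, D3, D5), and week 1 (W1), W2, W3, W6 and W8. There was 1 transcriptome of whole stomach per time point and no treatment or mutation. Stomachs from W3 onward came from males and younger ones from either sex, so age and sex cannot be told apart there. The study states that it pooled several stomachs in a replicate up to E17.5 and used single stomachs at later ages, without tying this to the RNA libraries. Ph1 (E12.5 to E17.5), Ph2 (E18.5 to W2) and Ph3 (W3 to W8) are the 3 RNA phases of the study, and they were drawn from these same transcriptomes, so the tests between them are not independent of the data. The time points of a phase stood in for replicates, and their spread holds change over time as well as error.

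In hedgehog signalling, a secreted ligand binds Patched and thereby releases Smoothened, which acts through the primary cilium to turn GLI proteins from repressors into activators of transcription. In the gut, Sonic hedgehog and Indian hedgehog are made mainly by the epithelium, and the cells that answer lie mainly in the mesenchyme beneath it. Ptch1, Hhip and Gli1 are themselves targets of the pathway, and Gli1 RNA is a common readout of its activity.

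The genes lie on 7 chromosomes of the mouse genome (GRCm38, positions counted from 1): Shh on the minus strand at chr5:28456840-28467101, Ihh at chr1:74945318-74951651 (minus), Dhh at chr15:98893027-98898540 (minus), Ptch1 at chr13:63508328-63573460 (minus), Smo at chr6:29735497-29761366 (plus), Hhip at chr8:79965850-80058078 (minus), Gli1 at chr10:127329882-127341579 (minus), Gli2 at chr1:118834061-119055698 (minus) and Gli3 at chr13:15463235-15730026 (plus). In the GENCODE annotation, exons of other genes share 15.7% of the exon bases of Shh with the antisense RNA 9530036O11Rik and 12.7% with Gm26894, 25.2% of those of Dhh with Gm49442 and 12.4% with Rhebl1, and 5.31% of those of Gli1 with Gm47200. Whether the counting used strand is not given in the sources used here, and reads from such stretches cannot be told apart.

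RefSeq promoter windows of GRCm38.p6, the 250 bases before 1 start per gene, matched 7 of the 9 genes: Ihh, Dhh, Ptch1, Smo, Hhip, Gli2 and Gli3. Those of Smo, Ptch1 and Gli3, genes whose RNA moved together below, are printed with that of Ihh, whose RNA did not move with them. Capitals mark GC boxes (GGGCGG or its complement CCGCCC), the sites that Sp-type factors bind.
Ihh (chr1:74951673-74951922, minus strand): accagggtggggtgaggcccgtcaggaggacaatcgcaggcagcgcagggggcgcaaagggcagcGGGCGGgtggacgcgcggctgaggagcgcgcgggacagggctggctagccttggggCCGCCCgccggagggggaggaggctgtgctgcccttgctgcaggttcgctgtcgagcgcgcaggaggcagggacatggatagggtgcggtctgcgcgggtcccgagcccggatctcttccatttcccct
Smo (chr6:29735247-29735496, plus strand): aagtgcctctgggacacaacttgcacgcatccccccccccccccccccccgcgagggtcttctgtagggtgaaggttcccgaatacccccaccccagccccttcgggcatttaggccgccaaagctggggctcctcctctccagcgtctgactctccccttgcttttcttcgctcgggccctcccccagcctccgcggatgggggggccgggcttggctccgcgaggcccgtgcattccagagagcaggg
Ptch1 (chr13:63565736-63565985, minus strand): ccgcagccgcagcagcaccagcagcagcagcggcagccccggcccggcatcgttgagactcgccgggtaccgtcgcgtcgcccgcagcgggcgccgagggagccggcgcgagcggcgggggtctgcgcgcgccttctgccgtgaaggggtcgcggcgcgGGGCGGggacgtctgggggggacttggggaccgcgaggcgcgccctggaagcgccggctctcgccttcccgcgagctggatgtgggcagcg
Gli3 (chr13:15463473-15463722, plus strand): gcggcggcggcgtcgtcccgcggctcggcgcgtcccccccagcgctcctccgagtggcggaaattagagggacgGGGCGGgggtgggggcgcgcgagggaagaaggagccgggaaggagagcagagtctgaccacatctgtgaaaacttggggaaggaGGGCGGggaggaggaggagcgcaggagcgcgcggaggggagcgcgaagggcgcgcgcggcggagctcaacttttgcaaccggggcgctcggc
A GC box stood in 6 of the 7 windows, all but that of Smo, and in 32.7% of the 32817 windows of all genes. The GLI consensus GACCACCCA, searched on both strands, was in none of the 7 and in 0.225% of all windows, and its core CCACCC was in 6 of the 7, all but that of Ptch1, and in 28.1% of all windows. The core lies within the consensus and can share letters with a GC box. The 7 windows held between 9 CpG (Dhh) and 41 CpG (Ptch1), more than 59.7% and 98.9% of all windows. The windows of Ptch1, Gli2 and Gli3 lie inside the gene as filed in the expression tables. No match says only that these letters are not in the window.

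Levels are in FPKM, fragment counts normalized for transcript length and sequencing depth, and were deposited with confidence bounds on either side. The 10 most abundant genes took 11.2% of all FPKM at E14.5 and 53.2% at W6, and summed FPKM was 745538 and 1344957 there. The median difference of all tested genes in log2(FPKM + 1) from Ph2 to Ph3 was -0.43. Differences of the 9 genes are therefore given also after scaling each transcriptome by the median ratio of its genes to their geometric means, with factors from 0.570 (W6) to 1.27 (E14.5). Relative depth, read from the value of 1 fragment, ran from 0.702 (E16.5) to 1.17 (W6) of that at E12.5. Epithelium, fibroblast and smooth muscle markers each summed to 359 FPKM or more at every time point. A few libraries stood apart from their neighbours. At D1 the liver markers summed to 1652 FPKM against 264 at E18.5 and 380 at D3, although Ph3 held 1534 to 2406. Apoa1 alone averaged 1885 FPKM in Ph3, and D1 was highest for 7 of the 10 liver markers. At W8 the forestomach markers summed to 19.0 FPKM against 1124 at W6. Of 10 exocrine pancreas genes, 7 reached 1 FPKM at E15.5 and 9 at D3, against 2 to 6 at the other time points. Counts of calls are given below also without E15.5, D1, D3 and W8, a choice made after seeing the data.

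The receptors and the GLI genes fell in both comparisons of the phases, in FPKM and after scaling, and the ligands Shh and Ihh did not fall in both. Shh and Ihh were at 64.8% and 101% of their E12.5 FPKM at W8, where Ptch1 was at 11.1%, Smo at 10.6%, Hhip at 20.9%, Gli1 at 6.53%, Gli2 at 3.82% and Gli3 at 2.49%. After scaling these shares were 121% and 189% for Shh and Ihh, 20.8%, 19.8% and 39.1% for Ptch1, Smo and Hhip, and 12.2%, 7.15% and 4.66% for the GLI genes. From highest to lowest time point, FPKM spanned 2.95-fold for Shh and 2.72-fold for Ihh, but 11.1-fold for Smo, 14.4-fold for Ptch1, 32.5-fold for Gli1, 34.4-fold for Gli2 and 40.1-fold for Gli3, with Hhip (5.44-fold) and the faint ligand Dhh (6.65-fold) between them. After scaling, these spans were 3.28-fold and 3.12-fold for the ligands, and 5.06-fold, 6.86-fold, 14.6-fold, 15.49-fold and 21.5-fold for Smo, Ptch1, Gli1, Gli2 and Gli3, and Hhip (3.14-fold) then spanned no more than the ligands (4.58-fold for Dhh). In whole-organ RNA, fewer cells of a type and less RNA per cell cannot be told apart.

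**Figure D1:**
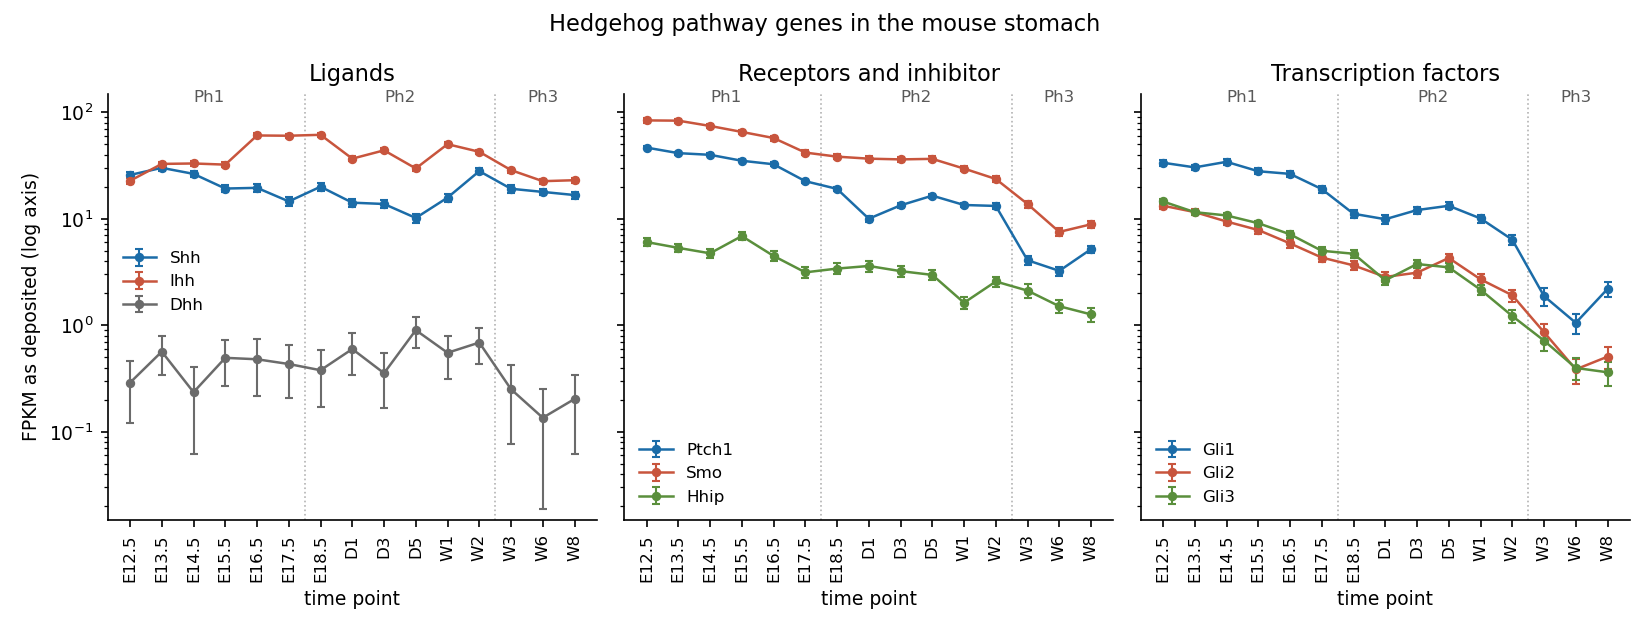
FPKM of the 9 genes (log axis) at the 15 time points in order, in panels of ligands, receptors with the inhibitor Hhip, and transcription factors. Bars are the deposited confidence bounds and dotted lines separate the 3 phases. Shh and Ihh stay above 10 FPKM throughout, while the GLI genes end at or below 2.19 FPKM at W8.

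The order of the 9 genes within a library, which no scaling of libraries changes, turned over. Smo was the most abundant from E12.5 to E15.5, with Ptch1 next. Ihh led from E16.5 onward except at D5, although its bounds overlapped those of Smo at E16.5 (60.5 and 57.3 FPKM) and at D1 (36.7 FPKM for both). From W2 onward the ligands Ihh and Shh held the first and second place.

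Among the ligands, Shh, the hedgehog of the early foregut, had FPKM of 25.8, 30.1, 26.4, 19.2, 19.5 and 14.6 from E12.5 to E17.5, of 19.995 at E18.5, 14.2 at D1, 13.8 at D3, 10.2 at D5, 15.8 at W1 and 28.0 at W2, and of 19.1, 17.9 and 16.7 at W3, W6 and W8. It was high at both E13.5 and W2 and lowest at D5, and the 3 phases overlapped. Between successive time points, its bounds overlapped in 5 of 14 pairs. With its levels sorted by size, 12 of 14 neighbouring pairs overlapped, and the breaks lay between E12.5 and E18.5 and between D3 and D5. Its mean was 22.6 ± 5.76 FPKM (SD, n = 6) in Ph1, 17.0 ± 6.27 (n = 6) in Ph2 and 17.9 ± 1.21 (n = 3) in Ph3. On the scale log2(FPKM + 1), limma gave a difference of -0.42 ± 0.21 (SE, adjusted p = 0.0934) from Ph1 to Ph2 and of 0.14 ± 0.26 (adjusted p = 0.663) from Ph2 to Ph3. After scaling the first difference was -0.15 (adjusted p = 0.571). Without W2 the first difference as deposited was -0.57 and past the threshold (adjusted p = 0.0166), as it was without E17.5 (-0.53, adjusted p = 0.0327).

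Scaling changed the call for Shh in Ph3. After median-ratio scaling its values at W3, W6 and W8 were 25.1, 31.4 and 24.6 against 9.57 to 29.0 in Ph2, and Shh was higher in Ph3 by 0.72 ± 0.26 (limma, adjusted p = 0.0374). Without W8 this difference was 0.78 and missed the threshold (adjusted p = 0.0625). The F test for Shh across the 3 phases missed it too after this scaling (limma, adjusted p = 0.0558). Under quantile normalization, Shh was not called from Ph2 to Ph3.

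Ihh, the ligand of the differentiated gut epithelium, had its highest levels late in fetal life. Its FPKM was 22.7 at E12.5, 32.7, 33.0 and 32.2 from E13.5 to E15.5, and 60.5, 60.2 and 61.4 from E16.5 to E18.5. It was then 36.7, 43.9 and 29.7 at D1, D3 and D5, 50.1 and 42.5 at W1 and W2, and 28.6, 22.5 and 23.0 at W3, W6 and W8. The bounds of E15.5 and E16.5 did not overlap, those of E18.5 and D1 did not either, and the Ph3 values all lay below those of Ph2. Means were 40.2 ± 16.1 FPKM (SD, n = 6) in Ph1, 44.1 ± 10.97 (n = 6) in Ph2 and 24.7 ± 3.38 (n = 3) in Ph3. Ph1 held both low and high values, and the difference of 0.18 ± 0.23 from Ph1 to Ph2 did not pass the test (limma, adjusted p = 0.506), nor did that of 0.46 after scaling (adjusted p = 0.122).

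From Ph2 to Ph3, Ihh fell by 0.78 ± 0.28 on the log2 scale (adjusted p = 0.0278). This call rested on single libraries and on the scaling. It was lost without E18.5 (-0.68, adjusted p = 0.0541), without W6 (-0.72, adjusted p = 0.0979) and without W8 (-0.74, adjusted p = 0.0818), and the scaled difference was -0.19 ± 0.30 (adjusted p = 0.632). Scaled Ihh was 37.6, 39.5 and 34.0 at W3, W6 and W8, within the 27.9 to 55.9 of Ph2.

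Dhh, the ligand of Schwann cells and of the gonad, was at the edge of detection. Its FPKM ranged from 0.135 at W6 through 0.289 at E12.5 to 0.900 at D5, and the bounds lay 31.8% to 86.0% of the value to either side. It did not reach 1 FPKM at any time point and was left out of the test, so 8 of the 9 genes were tested. When its levels were sorted by size, the bounds of all 14 neighbouring pairs overlapped. Between successive time points they overlapped in 12 of 14 pairs, but not between D3 and D5 or between W2 and W3. Dhh spanned 0.235 to 0.566 FPKM in Ph1, 0.355 to 0.900 in Ph2 and 0.135 to 0.251 in Ph3. The ranges of Ph2 and Ph3 were thus separate, although the bounds of D3 (0.166 to 0.543) and W3 (0.0770 to 0.424) overlapped. After scaling, the gap was narrow, from 0.344 at D3 to 0.330 at W3. Summed FPKM of 10 Schwann and glial cell markers was 49.0 to 66.6 in Ph1, 56.9 to 68.3 in Ph2 and 32.6 to 43.1 in Ph3, and their part in the values of Dhh was not tested. The ratio of Dhh to Shh was 0.0189 to 0.0885 in Ph2 and 0.00758 to 0.0131 in Ph3, without overlap (log2 difference -1.31, exact permutation test, p = 0.0238, adjusted p = 0.105).

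The balance between both epithelial ligands was not constant. The FPKM ratio of Ihh to Shh, which scaling cannot change, was 0.881 at E12.5, 1.09 at E13.5, 1.25 at E14.5, 1.68 at E15.5, 3.10 at E16.5 and 4.14 at E17.5. It was 3.07, 2.59, 3.19, 2.92 and 3.18 from E18.5 to W1, 1.52 at W2, and 1.496, 1.26 and 1.38 at W3, W6 and W8. Thus Shh was the more abundant only at E12.5, and the Ph3 ratios all lay below the Ph2 ratios, W2 by a narrow margin. The mean log2 ratio was 0.78 ± 0.88 (SD, n = 6), 1.41 ± 0.41 (n = 6) and 0.46 ± 0.12 (n = 3) in the 3 phases. Its difference from Ph2 to Ph3 was -0.95 (exact permutation, two-sided, p = 0.0119, adjusted p = 0.105 over 22 comparisons of 11 ratios).

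Against Epcam, an adhesion protein of simple epithelia, Shh had a ratio of 0.302 at E12.5, 0.112 at E17.5, 0.0974 at D5 and 0.237 at W6. Ihh stayed between 0.245 (E14.5) and 0.467 (E18.5) of Epcam, which is 1 of 10 epithelium markers. All 10 together summed to 487 FPKM at E12.5 and 3417 at W6, where Ihh was at 22.7 and 22.5. Against that sum, Ihh was thus lower at W6. The log2 difference of Shh:Epcam from Ph2 to Ph3 was 0.72 (exact permutation test, p = 0.0357, adjusted p = 0.112) and that of Ihh:Epcam -0.23 (p = 0.214, adjusted p = 0.321). The sum of the 10 markers was 1695 to 2894 FPKM in Ph2 and 2720 to 3417 in Ph3, where Shh averaged 17.0 and 17.9 FPKM. Their median difference in log2(FPKM + 1) was -0.14. Whether Shh rose against epithelium thus depends on the marker chosen.

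Both receptors fell in both comparisons. Ptch1, the receptor that holds Smoothened in check and is itself induced by the pathway, had FPKM of 46.6, 41.3, 39.8, 35.1, 32.5 and 22.5 from E12.5 to E17.5, of 19.1 at E18.5, 10.01 at D1, 13.4 at D3, 16.48 at D5, 13.47 at W1 and 13.2 at W2, and of 4.08, 3.24 and 5.18 at W3, W6 and W8. The 3 phases did not overlap, and the value at D1, where the liver markers were high, was the lowest of Ph2. It fell by 1.28 ± 0.18 on the log2 scale from Ph1 to Ph2 (limma, adjusted p = 8.78e-05) and by 1.55 ± 0.21 from Ph2 to Ph3 (adjusted p = 0.000127). After scaling it fell by 1.003 (adjusted p = 0.000204) and by 1.04 (adjusted p = 0.000752).

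Smo, the signal transducer that Patched restrains, had the highest early level of the 9 genes. Its FPKM was 83.9, 83.4, 74.4, 65.4, 57.3 and 41.8 from E12.5 to E17.5, then 38.3, 36.7, 36.1, 36.5, 29.6 and 23.6 from E18.5 to W2, and 13.8, 7.53 and 8.87 in Ph3. The 3 phases did not overlap, and E18.5 to D5 formed a plateau whose bounds overlapped. Smo fell by 0.98 ± 0.19 from Ph1 to Ph2 (limma, adjusted p = 0.000548) and by 1.66 ± 0.23 from Ph2 to Ph3 (adjusted p = 0.000125), and by 0.69 (adjusted p = 0.00156) and 1.098 (adjusted p = 0.000476) after scaling.

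Within a library, the ratio of Ptch1 to Smo was 0.496 to 0.567 throughout Ph1, dropped to 0.273 at D1, was 0.558 again at W2 and lay between 0.297 (W3) and 0.584 (W8) in Ph3. The log2 difference from Ph1 to Ph2 was -0.34 (exact permutation test, p = 0.0238, adjusted p = 0.105), and from Ph2 to Ph3 it was 0.0056 (p = 0.964, adjusted p = 0.964).

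Hhip, a membrane protein that binds and sequesters the ligands, was expressed at a lower level. Its FPKM was 6.05, 5.33, 4.74, 6.87, 4.48 and 3.14 from E12.5 to E17.5, 3.41, 3.60, 3.22, 2.97, 1.63 and 2.58 from E18.5 to W2, and 2.11, 1.51 and 1.26 in Ph3. Neighbouring phases overlapped, and its highest value came at E15.5. Hhip fell by 0.64 ± 0.17 from Ph1 to Ph2 (limma, adjusted p = 0.00400), and by 0.41 (adjusted p = 0.0264) after scaling. From Ph2 to Ph3 it fell by 0.56 ± 0.20 (adjusted p = 0.0287), a call that scaling removed (-0.15, adjusted p = 0.512). The same call was lost without any 1 of E18.5, D1, D3, W6 and W8, with differences of -0.52, -0.51, -0.53, -0.53 and -0.46 and adjusted p from 0.0507 to 0.119.

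The ratio of Hhip to Ptch1 was 0.130 at E12.5, 0.119 at E14.5, 0.196 at E15.5, 0.360 at D1, 0.121 at W1, and 0.518, 0.465 and 0.244 at W3, W6 and W8. The log2 differences were 0.54 from Ph1 to Ph2 (exact permutation test, p = 0.0476, adjusted p = 0.116) and 0.97 from Ph2 to Ph3 (p = 0.0357, adjusted p = 0.112), and the phases overlapped.

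The 3 transcription factors had the largest spans from highest to lowest FPKM. Gli1, the activator that the pathway induces, had FPKM of 33.6, 30.4, 34.2, 27.9, 26.4 and 19.0 from E12.5 to E17.5, of 11.1, 9.90, 12.1, 13.2, 10.1 and 6.36 from E18.5 to W2, and of 1.88, 1.05 and 2.19 in Ph3. Its phases did not overlap, and the level stayed between 9.90 and 13.2 from E18.5 to W1. Gli1 fell by 1.37 ± 0.18 from Ph1 to Ph2 (limma, adjusted p = 7.12e-05) and by 2.08 ± 0.22 from Ph2 to Ph3 (adjusted p = 4.94e-05), and by 1.098 (adjusted p = 0.000128) and 1.67 (adjusted p = 6.15e-05) after scaling. Only 1.98% and 1.51% of the 16902 tested genes had lower differences than Gli1 as deposited, and 2.08% and 1.54% after scaling.

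Gli2, the main activator of the early response, declined steadily before birth. Its FPKM was 13.3, 11.6, 9.42, 7.84, 5.87 and 4.32 from E12.5 to E17.5, 3.65, 2.84, 3.12, 4.28, 2.70 and 1.91 from E18.5 to W2, and 0.860, 0.385 and 0.507 in Ph3. D5 (4.28) came within a narrow margin of E17.5 (4.32), and after scaling these phases overlapped. Gli2 fell by 1.19 ± 0.22 (limma, adjusted p = 0.000416) and by 1.35 ± 0.27 (adjusted p = 0.000919), and after scaling the differences were -0.94 (adjusted p = 0.00122) and -1.104 (adjusted p = 0.00234).

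Gli3, the main repressor of the family, had FPKM of 14.52, 11.53, 10.7, 9.08, 7.15 and 5.01 from E12.5 to E17.5, of 4.69, 2.65, 3.76, 3.496, 2.16 and 1.22 from E18.5 to W2, and of 0.718, 0.397 and 0.362 in Ph3. Its phases did not overlap. Gli3 fell by 1.42 ± 0.24 (limma, adjusted p = 0.000268) and by 1.36 ± 0.30 (adjusted p = 0.00160), and after scaling by 1.16 (adjusted p = 0.000656) and 1.13 (adjusted p = 0.00395). The pseudocount of 1 FPKM understates falls of genes this low: with a pseudocount of 0.1, the differences from Ph2 to Ph3 were -2.24 for Gli2 and -2.32 for Gli3.

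Gli1 was 2.18 to 4.49 times Gli2 and 2.31 to 6.06 times Gli3 over the 15 time points, and none of the 4 phase comparisons of these ratios had an exact permutation p under 0.05 (0.801 and 0.119 for Gli1:Gli2, 0.219 and 0.512 for Gli1:Gli3). The ratio of Gli1 to Ptch1 was 0.721 to 0.860 in Ph1, 0.482 (W2) to 0.989 (D1) in Ph2 and 0.325 to 0.461 in Ph3. Ph2 and Ph3 did not overlap in this ratio, with a log2 difference of -0.82 (exact permutation test, p = 0.0238, adjusted p = 0.105). The margin between W2 and W3 was narrow, and their combined bounds overlapped (0.429 to 0.542 and 0.3725 to 0.569). Against Pdgfra, a receptor of mesenchymal cells, Gli1 was at 0.451 at E12.5, 1.34 at E16.5, 0.455 at W2, and 0.277, 0.227 and 0.421 in Ph3, and the difference from Ph2 to Ph3 was -1.35 (exact permutation test, p = 0.0119, adjusted p = 0.105). That of Ptch1 to Pdgfra was -0.53 (exact permutation test, p = 0.0476, adjusted p = 0.116). Pdgfra is 1 of 10 fibroblast and mesenchyme markers, and these ratios depend on the marker chosen. The 10 summed to 2478 FPKM at E12.5 and 3935 at E16.5, while Gli1 went from 33.6 to 26.4. In log2(FPKM + 1), their median difference from Ph2 to Ph3 was -1.75, against -2.08 for Gli1 and -1.55 for Ptch1.

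**Figure D2:**
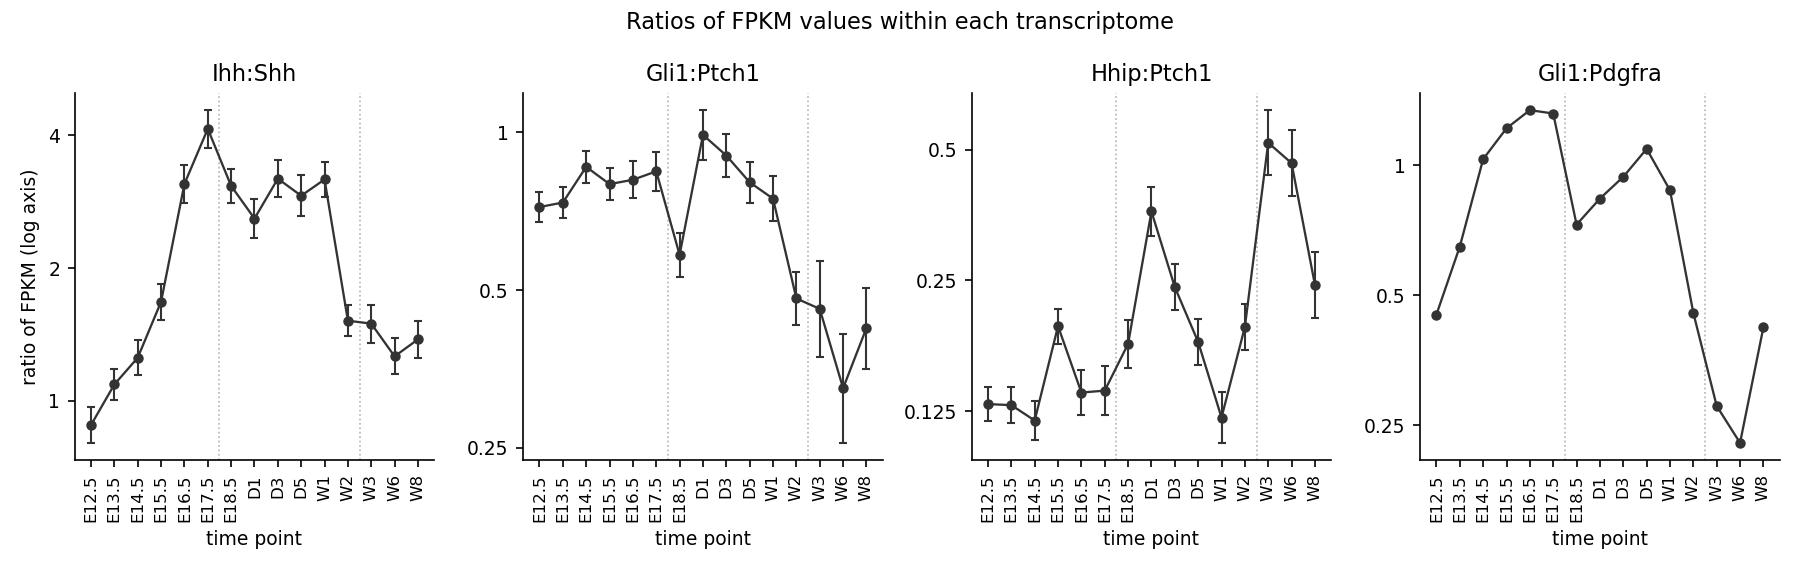
Ratios of FPKM within each transcriptome (log axis) for Ihh:Shh, Gli1:Ptch1, Hhip:Ptch1 and Gli1:Pdgfra at the 15 time points. Bars, where both genes are members, combine the deposited bounds of the pair. Ihh:Shh climbs from 0.881 to 4.14 by E17.5 and is back at 1.52 by W2.

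Across all 22 comparisons of ratios, none passed an adjusted p of 0.05 in the exact permutation test, and 9 had an unadjusted p under 0.05. The design allows no p below 0.0119 between Ph2 and Ph3 and none below 0.00216 between Ph1 and Ph2, and the lowest adjusted p was 0.105.

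The GLI genes and receptors crossed 50% of their E12.5 level at different time points. Gli2 and Gli3 stayed below 50% of their E12.5 FPKM from E16.5 onward, Ptch1 and Smo from E17.5, Gli1 from E18.5 and Hhip from D5. Gli3 was at 49.2% at E16.5, and Smo and Ptch1 at 49.9% and 48.4% at E17.5. Bounds there lay 7.53%, 5.54% and 4.68% of the value to either side, so the time point of these crossings is not resolved. Shh, Ihh and Dhh did not stay below that level. After scaling, the same point was reached at E16.5 for Gli2, E17.5 for Gli3, E18.5 for Ptch1 and Gli1, W1 for Smo and W8 for Hhip. Over the 15 time points, Pearson's r between any pair of Ptch1, Smo, Gli1, Gli2 and Gli3 on the log2 scale was 0.964 to 0.987 (0.931 to 0.983 after scaling). That of Shh with Ihh was -0.114, and those of Shh and Ihh with the receptors, Hhip and the GLI genes were 0.105 to 0.401 as deposited and -0.611 to -0.135 after scaling. These are descriptions of values that share libraries and a common trend with age.

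Counted over the family, 6 of the 8 tested genes differed across the 3 phases (limma moderated F test, adjusted p under 0.05), where 81.5% of all tested genes did, so the number called does not set the family apart. All 6, namely Ptch1, Smo, Hhip and the 3 GLI genes, were lower in Ph2 than in Ph1, and none was higher. Of all tested genes 63.1% differed there, 44.2% lower and 18.9% higher. From Ph2 to Ph3, 7 of 8 were lower, all but Shh, against 52.2% of all genes, and none was higher, against 5.85% (58.1% in either direction). After scaling, the same 6 differed across the phases (74.4% of all genes) and were again lower in Ph2, where 55.7% of all genes differed, 27.5% lower and 28.2% higher. In Ph3, where 42.1% of all genes then differed, 5 were lower (Ptch1, Smo and the GLI genes, against 18.6% of all genes) and Shh was higher (23.5%). The median difference of all genes was -0.22 and -0.43 as deposited and 0.000445 and -0.016 after scaling, and that of the 8 was -1.08 and -1.36, and -0.82 and -1.07. Without E15.5, D1, D3 and W8, 6, 6 and 5 genes were called in the 3 tests, where 72.5%, 51.9% and 37.8% of all genes were.

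**Figure D3:**
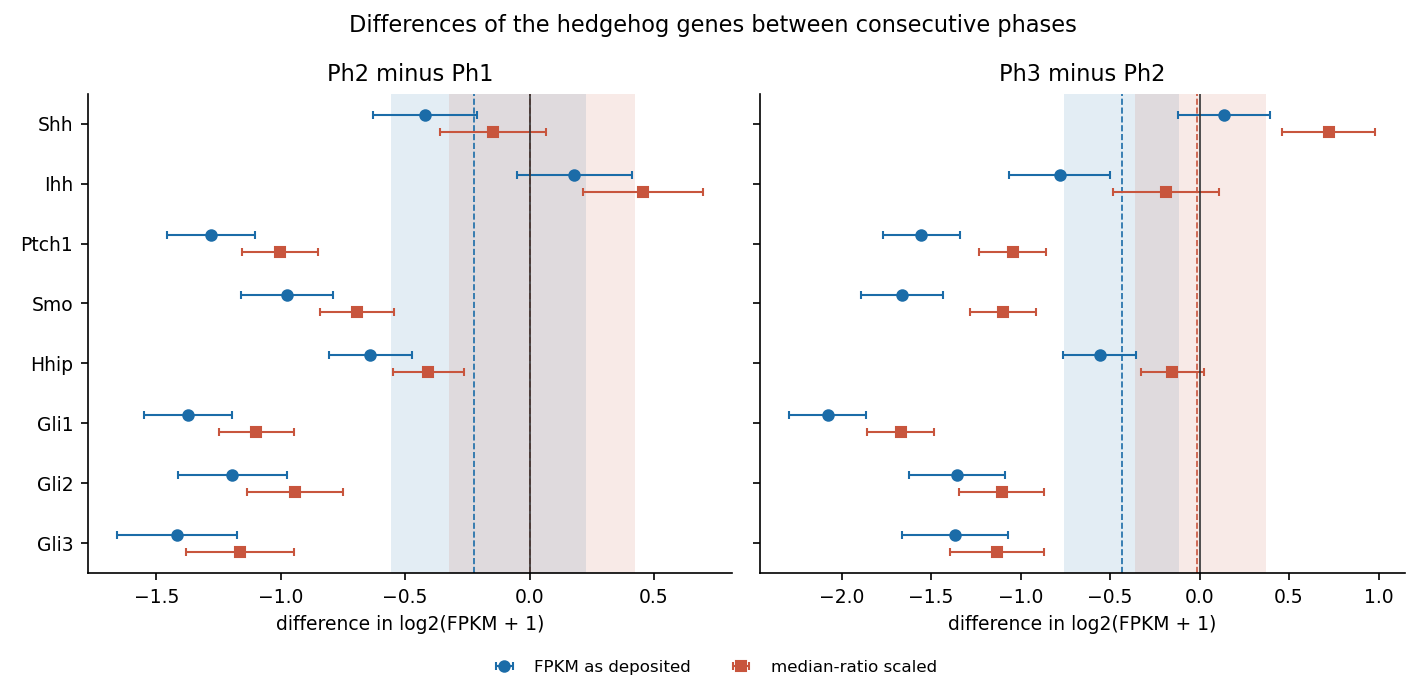
Differences in log2(FPKM + 1) of the 8 tested genes between consecutive phases, with standard errors from limma, as deposited (circles) and after median-ratio scaling (squares). Shaded bands span the interquartile range of all 16902 tested genes in each scaling and dashed lines are their medians. Ptch1, Smo and the GLI genes lie left of the band of their scaling in both panels, and Shh lies right of it in Ph3 (0.14 and 0.72).

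Without any model, Ph2 lay wholly below Ph1 for Ptch1, Smo, Gli1, Gli2 and Gli3 (5 of 8, against 21.9% of all tested genes), and after scaling for 4 of these, not Gli2 (11.8%). Ph3 lay wholly below Ph2 for the same 5 and Ihh (6 of 8, against 44.7%), and after scaling for the same 5 without Ihh (16% of all genes). No member lay wholly higher in the later phase, as 7.79% and 4.63% of all genes did, and 13.1% and 20.6% after scaling. A spline over the order of the time points, with no phases, called all 8 genes (85.6% of all genes; adjusted p = 0.0312 for Shh and 0.00234 for Ihh), and again after scaling (79.7%). A plain F test on untransformed FPKM called 6 of the 8 across the 3 phases, and 78.1% of all genes. The t contrast from Ph2 to Ph3 on untransformed FPKM called 2 of the 8, Smo and Gli1, and 39.8% of all genes.

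Among 11 other genes of ligand processing, release and co-reception, 10 were tested, Lrp2 not reaching 1 FPKM. None rose, 6 fell and 4 did not pass from Ph1 to Ph2 (median difference -0.69), and none rose, 8 fell and 2 did not pass from Ph2 to Ph3 (median -1.08). After scaling 5 fell and 1 rose, then 7 fell and none rose. Of all tested genes 44.2% and then 52.2% fell, and 18.9% and then 5.85% rose. After scaling 27.5% and then 18.6% fell, and 28.2% and then 23.5% rose. Gpc3, a glypican that competes for the ligand, fell by 1.14 and 3.30 on the log2 scale (limma, adjusted p = 0.00374 and 5.27e-05), from 306 ± 74.2 FPKM in Ph1 to 14.7 ± 10.1 in Ph3 (SD, n = 6 and 3), and its scaled differences were -0.85 and -2.73. The co-receptor Boc fell by 0.62 and 1.53, the first of which was not called after scaling (-0.36, adjusted p = 0.0546). The co-receptor Cdon fell by 0.76 and 1.33, with scaled differences of -0.49 and -0.86. Gas1, which also binds the ligand at the membrane, fell by 1.84 from Ph2 to Ph3, and its difference from Ph1 to Ph2 was -0.43 (adjusted p = 0.0870). After scaling these were -1.26 and -0.14.

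Of 20 genes of the cilium and of transduction inside the cell, 18 fell from Ph1 to Ph2 and 17 from Ph2 to Ph3, none rose, and the medians were -0.69 and -0.81. After scaling 13 and 10 fell, and 1 and 2 rose. The shares of all tested genes that fell were 44.2% and 52.2%, and 27.5% and 18.6% after scaling. Sufu, the main inhibitor of GLI proteins in the cytoplasm, fell by 0.85 and 1.37 (limma, adjusted p = 0.000254 and 9.27e-05), with phase means of 16.3 ± 2.97, 8.63 ± 1.62 and 2.70 ± 0.539 FPKM, and scaled differences of -0.58 and -0.90. Kif7, the kinesin of the cilium tip, fell by 0.88 and 1.56, and Evc and Evc2, partners of Smoothened at the cilium base, by 0.76 and 1.43 and by 0.87 and 1.29. Their scaled differences were -0.63 and -1.33, -0.50 and -1.02, and -0.62 and -0.90, each called.

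Of 14 genes reported as targets in gut mesenchyme and elsewhere, 11 fell, 1 rose and 2 did not pass from Ph1 to Ph2 (median -0.78), and 11 fell and 3 did not pass from Ph2 to Ph3 (median -1.30). After scaling 7 fell and 2 rose, then 9 fell. Falls were called in 44.2% and 52.2% of all tested genes, and in 27.5% and 18.6% after scaling. The forkhead genes of gut mesenchyme Foxf1 (94.7 ± 32.2, 38.7 ± 9.87 and 9.34 ± 3.40 FPKM in the 3 phases) and Foxl1 (9.57 ± 1.54, 3.89 ± 0.569 and 0.959 ± 0.339 FPKM) fell in both comparisons, by 1.23 and 1.95 and by 1.11 and 1.33 (scaled -0.95 and -1.39, and -0.85 and -1.0001). Mycn and Osr1 fell by 0.84 and 2.33 and by 1.13 and 2.09, and the first fall of Mycn was not called after scaling (-0.58, adjusted p = 0.0538). The other scaled differences were -2.06 for Mycn and -0.86 and -1.64 for Osr1. Bmp4, the mesenchymal morphogen, was at 30.9 ± 4.37, 33.6 ± 7.86 and 13.6 ± 5.53 FPKM, and of its differences that from Ph2 to Ph3, a fall of 1.27, was called (adjusted p = 0.000473; scaled -0.69, adjusted p = 0.0187). Igfbp6 was the gene that rose, by 2.16 from Ph1 to Ph2 (adjusted p = 0.000437), from 6.83 ± 3.92 to 32.5 ± 12.8 FPKM (scaled difference 2.395).

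**Figure D4:**
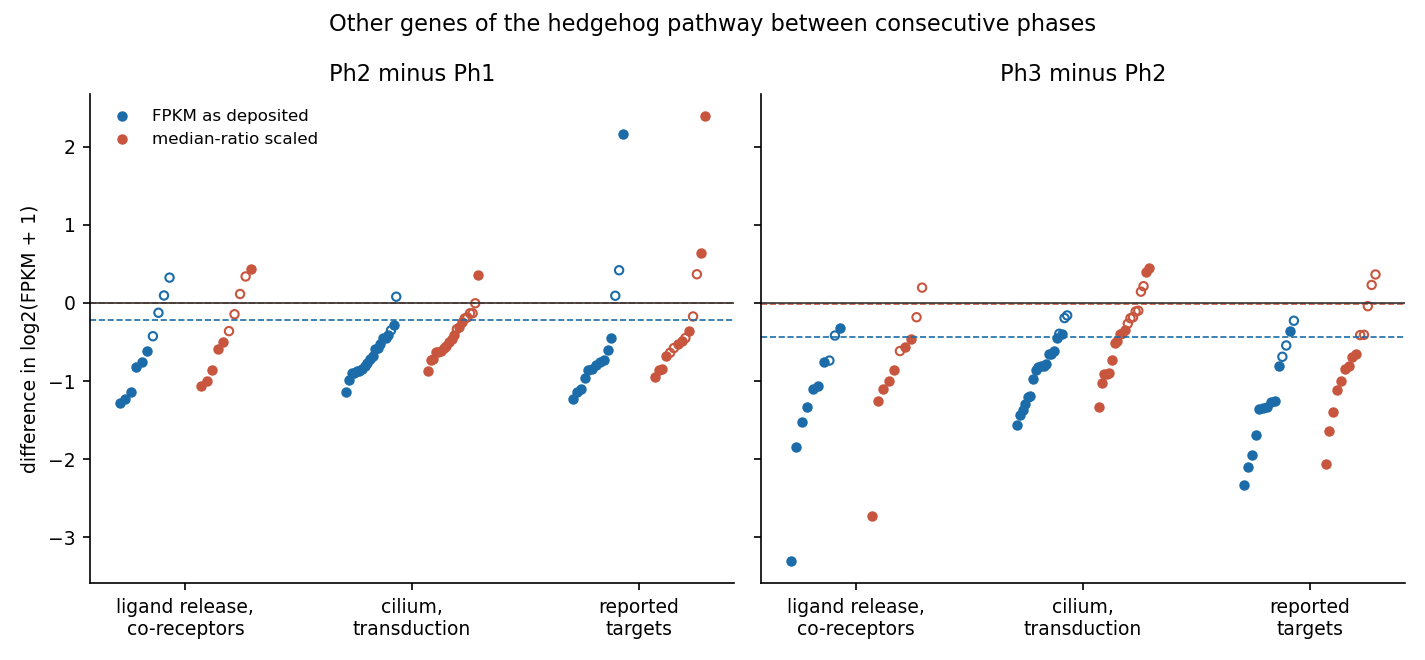
Differences in log2(FPKM + 1) between consecutive phases for 44 tested genes of 3 other hedgehog lists, as deposited and after median-ratio scaling. Each point is a gene, filled where limma gave an adjusted p under 0.05, and dashed lines are the medians of all tested genes. Of the filled points as deposited, 35 and 36 lie below 0, where 44.2% and 52.2% of all tested genes were called lower. Igfbp6 stands at 2.16 in the left panel.

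The genes whose course was most like that of a member were ranked by Pearson's r of log2(FPKM + 1) over the 15 time points. For Gli1 they were Cep250 (r = 0.993), Hjurp, Zfp532, Gtf2i and Sufu (0.990), and for Hhip Glmn (0.967), Nrg2, Pcdhgb7, Pias2 and Ube2d3. For Ihh they were Abcg3 (0.933), Ctsc, Lman2, Actr3b and Lypd6 (0.901). The closest to Shh were Pak1 (0.883), Arhgap42, Id3, Mgat3 and Tbc1d13 (0.825). After scaling the r of Ube2d3 with Hhip was 0.268 and that of Lman2 with Ihh 0.568.

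Cell type markers moved along the same axis, and their part in these results was not tested. Of all tested genes, 18.9% rose and 44.2% fell from Ph1 to Ph2, and 5.85% rose and 52.2% fell from Ph2 to Ph3. After scaling these shares were 28.2% and 27.5%, then 23.5% and 18.6%. Of 10 fibroblast and mesenchyme markers, 3 fell and none rose from Ph1 to Ph2, and all 10 fell from Ph2 to Ph3 (8 after scaling). Their summed FPKM was 2478 to 3935 in Ph1, 1835 to 4513 in Ph2 and 359 to 1662 in Ph3. All 10 cell division markers fell in both comparisons (1 from Ph2 to Ph3 after scaling), and their sum was 420 to 627, 114 to 304 and 64.9 to 121 FPKM. Of 10 epithelium markers 4 rose and 1 fell, then 4 fell (after scaling 6 rose and 1 fell, then 2 rose and 2 fell), with sums of 487 to 2103, 1695 to 2894 and 2720 to 3417 FPKM. Smooth muscle markers went up first (8 rose, 1 fell) and then 4 fell (1 after scaling). Of the 10 endothelium markers 4 and then 8 fell (after scaling 2, then 6 with 1 risen), and of the 10 Schwann and glial cell markers 5 rose and 2 fell, then 6 fell (after scaling 7 rose and none fell, then 1 rose and 6 fell). Parietal cell markers rose (8, then 7 of 10, and 8 and 10 after scaling), as did surface mucous cell markers (9, then 7, and 9 and 8 after scaling). Forestomach markers had 3 risen and then 4 fallen, liver markers 4 risen and then 1 risen and 1 fallen, and exocrine pancreas markers 3 risen in each comparison. After scaling, forestomach markers had 3 risen and then 3 fallen, liver markers 4 and then 2 risen, and exocrine pancreas markers 3 and then 4 risen.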

How the data were processed

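Whole-stomach RNA was sequenced at 15 time points, 1 transcriptome each, and samples were grouped by the time point in their labels. The authors deposited FPKM per gene entry with confidence bounds. The submitters' processing notes name Bowtie 0.12.2, FastQC and GRCm38 p2, while the paper's methods name HISAT2 and StringTie, and the tables have the layout of Cufflinks. The methods give liver as the source of RNA, where labels and the paper otherwise give stomach. Read totals are not in the tables, so precision was taken from the bounds, which cover counting and assignment within 1 library.

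FPKM of entries with 1 symbol were summed, and the 16902 of 44788 symbols that reached 1 FPKM at any time point were tested on log2(FPKM + 1) with limma 3.58.1 (R 4.3.3): a moderated F test over the 3 phases, and a contrast for each pair of successive phases. P-values were adjusted across the 16902 genes (Benjamini-Hochberg) and called under 0.05. Log2 ratios of gene pairs (0.1 FPKM added) were compared by exact two-sided permutation (Python 3.11.15, NumPy 2.4.6). The steps were tested on simulated data. Median-ratio scaling, quantile normalization, other pseudocounts, filters, thresholds, groupings and tests, and leaving out each time point, were tried. Alternatives that combined scaling with another grouping or without W8, the spline after scaling, and the fit without E15.5, D1, D3 and W8 were added after seeing the data.

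The members, the gene lists and the tests were chosen with earlier results of these data known. All 9 members are named. Of each other hedgehog list, up to 4 genes with the largest called difference are named, and Sufu, Boc, Cdon, Gas1, Foxf1, Foxl1 and Bmp4 in any case. A gene that the rule also names is not reported here. For likeness, the 5 genes of highest r are named for Shh, Ihh, Gli1 and Hhip. Marker lists are given by their counts.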

Additional observations from a re-analysis of the deposited data

Results flagged for a closer look

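In each group of 6 time points, the highest or lowest value was compared with its nearest neighbour relative to the range of the group (Dixon's criterion at 95%), and about 1 in 20 groups passes by chance. Of 40 groups examined, 2 passed. The log2 ratio of Ihh to Shh at W2 was 0.601, below the other time points of Ph2, with a gap of 0.718 of the range. Shh had its second highest FPKM of all time points at W2 (28.0). The log2 ratio of Hhip to Ptch1 at E15.5 was -2.33, above the other time points of Ph1, with a gap of 0.662 of the range. Hhip had its highest FPKM (6.87) there. In that library 7 of 10 exocrine pancreas genes reached 1 FPKM, and a link between them and Hhip was not tested.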

How the results depend on the processing

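Ptch1, Smo, Gli1, Gli2 and Gli3 were lower in Ph2 than in Ph1 under all 29 alternatives, and Hhip too. From Ph2 to Ph3, Smo and Gli1 were lower under all 29, and Ptch1, Gli2 and Gli3 under 28. The exception was the t contrast on untransformed FPKM (adjusted p = 0.0650, 0.206 and 0.218). Ihh and Hhip lost that call under 12 alternatives each, and Hhip had the opposite sign under quantile normalization (0.041). A division at birth and at weaning turned the sign of Ihh from Ph1 to Ph2 (-0.019). Leaving out each time point gave 6 to 7, 6 to 7 and 5 to 7 members called in the 3 tests, where 76.3% to 83.3%, 57.6% to 66.4% and 40.9% to 61.2% of all genes were. With the phases of the study's protein data, which put E17.5 in Ph2, 8, 7 and 7 members were called (82.4%, 64.1% and 62.8% of all genes). Of the other pathway genes, 35 and 36 fell in the first and second comparison as deposited. From Ph2 to Ph3, 21 fell under quantile normalization, where 14.3% of all genes did. The t contrast on untransformed FPKM called 19 lower (2 members called), where 33% of all genes were lower. With scaling and the division at birth and at weaning together, 22 fell in each comparison, where 24.8% and 15.7% of all genes did. Ratios near no change turned sign. Ptch1:Smo from Ph2 to Ph3 was -0.0071 with 0.01 FPKM added, -0.043 with the protein phases, -0.43 without E15.5, D1, D3 and W8, and -0.23 to 0.26 when single time points were left out. Gli1:Gli2 from Ph1 to Ph2 was 0.081 (protein phases), 0.019 (birth and weaning) and -0.13 to 0.036 (single time points left out). Gli1:Ptch1 was 0.0099 (birth and weaning) and -0.20 to 0.0016, Ihh:Epcam -0.071 (birth and weaning), and Ptch1:Pdgfra 0.046 (protein phases) and 0.070 (without the 4 libraries). No paired analysis was possible because each time point has 1 sample. Depth limits Dhh, and Gli2 and Gli3 in Ph3.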
